A study of Mus musculus with 6 samples.

Results

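The genes described here encode 10 matricellular proteins: the thrombospondins Thbs1, Thbs2, Thbs3 and Thbs4, the tenascins Tnc and Tnxb, periostin (Postn), SPARC (Sparc), and the SPARC-related modular calcium-binding proteins Smoc1 and Smoc2. They were taken by symbol from a table of 44788 genes and other transcripts, where all 10 were present, and all 10 were among the 15362 genes that passed the filter on low counts. RNA came from 6 samples of C57BL/6 mouse chondrocytes, the cells of cartilage, taken from the end (epiphysis) of the femur, with an age label of postnatal day 1. The series design calls the cells P2, a term it does not explain. The culture medium was DMEM/F12, supplemented with FBS at 10%. Control cells received 0.1% DMSO for 48 h, although the series design names PBS as the vehicle. The TGF-alpha group received 10 ng/ml of TGF-alpha, which binds and activates the EGF receptor (EGFR), in 0.1% DMSO for 48 h. The third group received gefitinib, an inhibitor of the EGFR kinase, at 10 µM for 30 min, and then gefitinib and TGF-alpha together for 48 h in the same DMSO. Each group had 2 libraries. A group with gefitinib alone was not analysed here, so an effect of gefitinib by itself and an effect on the response to the ligand cannot be told apart.

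Matricellular proteins are secreted into the extracellular matrix but serve mainly to regulate how cells attach to it and how they receive growth factors, rather than to bear load. Thrombospondins bind calcium, collagens, integrins and, in the case of thrombospondin-1 and thrombospondin-2, the receptors CD36 and CD47, and thrombospondin-1 can activate latent TGF-beta. Tenascin-C and periostin mark growing, moving and healing connective tissue, SPARC binds collagen and is abundant in bone, and the SMOC proteins are extracellular modulators of BMP signalling. The cartilage protein COMP is the remaining member of the thrombospondin family and is given below among related genes.

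Total counts lay between 12317407 and 16096263 per library, and replicates differed by more than counting noise in all 3 groups (chi-square per degree of freedom 3.03 to 3.83). Nothing in the labels says that replicates were separate cultures or animals, so the spread behind each p-value is that of these 2 libraries per group and could be technical alone. The label of chondrocytes was checked against 14 markers, all of them detected, whose summed level was 77985 to 83158 CPM (the usual depth-normalized count, scaled here with edgeR's TMM method) in control. That sum was 38858 to 40043 CPM with TGF-alpha and 68211 to 70717 CPM with both agents, and all 14 markers fell with TGF-alpha and rose with gefitinib. In whole-culture RNA, fewer cells of a type and less RNA per cell cannot be told apart. Of 17 tested genes of EGFR and ERK signalling, 15 rose with TGF-alpha and 0 fell, and with gefitinib added 16 fell and 1 rose. Over all tested genes, 15.9% rose and 14.0% fell with TGF-alpha, and 17.0% rose and 16.9% fell with gefitinib added. Dusp6, Errfi1, Fosl1 and Etv5 rose 8.01-, 6.34-, 8.58- and 3.29-fold with TGF-alpha. With both agents Etv5 was 2.26-fold below control, Egfr 1.23-fold and Spred1 1.32-fold below it, and Tgfa 1.25-fold above it.

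Compared per kilobase of exon, the 10 genes spanned more than 3 orders of magnitude. In control, Thbs1 was highest at 4058 ± 199.9 CPM per kb (mean ± SD, n = 2 here and below), followed by Sparc at 2028 ± 86.8. Among all genes with a known length, Thbs1 ranked between 3 and 6 in the 6 libraries and Sparc between 8 and 19. Then came Tnc at 94.8 ± 1.52, Thbs2 at 63.4 ± 2.64, Smoc1 at 48.9 ± 3.27 and Smoc2 at 26.8 ± 0.221 CPM per kb. Thbs3 (12.05 ± 0.771) and Postn (11.98 ± 0.0359) could not be ordered, since their libraries overlapped. Thbs4 at 3.65 ± 0.281 and Tnxb at 1.11 ± 0.0602 CPM per kb closed the order. Such an order between genes rests in part on exon length. In plain CPM, for example, Smoc2 (186 ± 1.53) lay above Smoc1 (171 ± 11.4) in control.

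The order changed with treatment. With TGF-alpha, Thbs2 (98.9 ± 1.03 CPM per kb) stood above Tnc (71.8 ± 1.02), and Smoc2 (7.81 ± 0.264) dropped to the level range of Postn (8.73 ± 0.774), Thbs4 (6.92 ± 0.131) and Thbs3 (6.90 ± 0.688). The libraries of Thbs4 and Thbs3 overlapped in that group. With TGF-alpha plus gefitinib, Tnc (100.4 ± 1.52) was again above Thbs2 (49.7 ± 1.29), and Smoc1 (29.0 ± 0.665) and Smoc2 (24.4 ± 0.293) lay next to each other without overlap. Together the 10 genes took 3.30% ± 0.123 of a control library's counts, 2.02% ± 0.0982 under TGF-alpha and 2.38% ± 0.00986 under both agents, most of it from Thbs1.

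**Figure D1:**
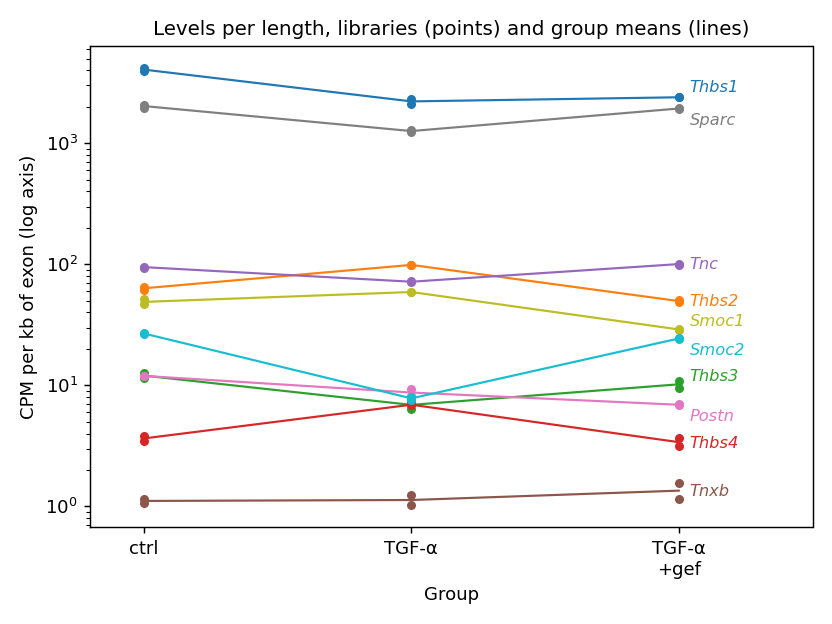
Level of each of the 10 genes in CPM per kb of exon (log axis) in control (ctrl), TGF-alpha and TGF-alpha plus gefitinib (TGF-α +gef) libraries. Points are the 2 libraries of a group and lines join group means. Thbs1 and Sparc lie far above the rest in all groups, and the lines of Smoc2 and Thbs4 run in opposite directions.

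The first comparison, TGF-alpha against control, addressed the effect of EGFR activation, which the series title names. Of the 10 genes 6 fell (Thbs1, Thbs3, Tnc, Postn, Sparc and Smoc2), 3 rose (Thbs2, Thbs4 and Smoc1) and Tnxb did not pass the test. The steepest change was the fall of Smoc2, at 3.43-fold, and the smallest called change the 1.21-fold rise of Smoc1. A call is an adjusted p under 0.05 in edgeR's quasi-likelihood test over all tested genes. Over those genes 29.9% were called, 15.9% higher and 14.0% lower, and 37.3% were called among the 9606 whose mean reached 10 CPM, the range in which all 10 members lie. The libraries of 9 members did not overlap between the groups, beside 64.1% of tested genes, and 1 member, Smoc2, was called with a change of at least 2-fold, beside 7.07%. The median log2 fold change of the 10 was -0.43, against 0.0039 over all tested genes. With total counts in place of TMM scaling, the share of calls that were higher went from 53.2% to 65.4%, and the same numbers of members, 6 and 3, were called in each direction.

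The second comparison set gefitinib-treated cells that also had the ligand beside cells with the ligand alone. Thbs3, Tnc, Sparc and Smoc2 were higher with gefitinib, while Thbs2, Thbs4, Smoc1 and Postn were lower. Thbs1 and Tnxb did not pass the test. These 8 calls in 10 stand beside 34.0% of all tested genes, or 42.0% of those whose mean reached 10 CPM; by direction the shares were 17.0% higher and 16.9% lower. Libraries did not overlap for 9 members, beside 65.8% of tested genes. Calls of at least 2-fold were made for 3 members, Thbs4, Smoc1 and Smoc2, beside 7.88%. The median log2 fold change of the members was 0.19, against 0.013 over all tested genes. This comparison shares its TGF-alpha libraries with the first, so opposite signs in both are not independent of each other.

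The third comparison, TGF-alpha plus gefitinib against control, showed where the levels with both agents lay relative to vehicle-treated cells. Thbs1, Thbs2, Postn and Smoc1 were lower than in control, and 0 members were higher. The other 6, Thbs3, Thbs4, Tnc, Tnxb, Sparc and Smoc2, did not pass the test, which does not show that they were at the control level. The 4 calls in 10 stand beside 9.52% of all tested genes (5.27% higher and 4.26% lower) and 13.9% of those whose mean reached 10 CPM. Libraries did not overlap for 8 members, beside 52.1% of tested genes, and 0 members were called with a change of at least 2-fold, beside 0.690%. The members' median log2 fold change was -0.19, against 0.0020 over all tested genes. Total-count scaling moved the share of higher calls among all called genes from 55.3% to 77.5%, and under it Tnc was also called higher (log2 0.15, edgeR adjusted p = 0.0331).

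**Figure D2:**
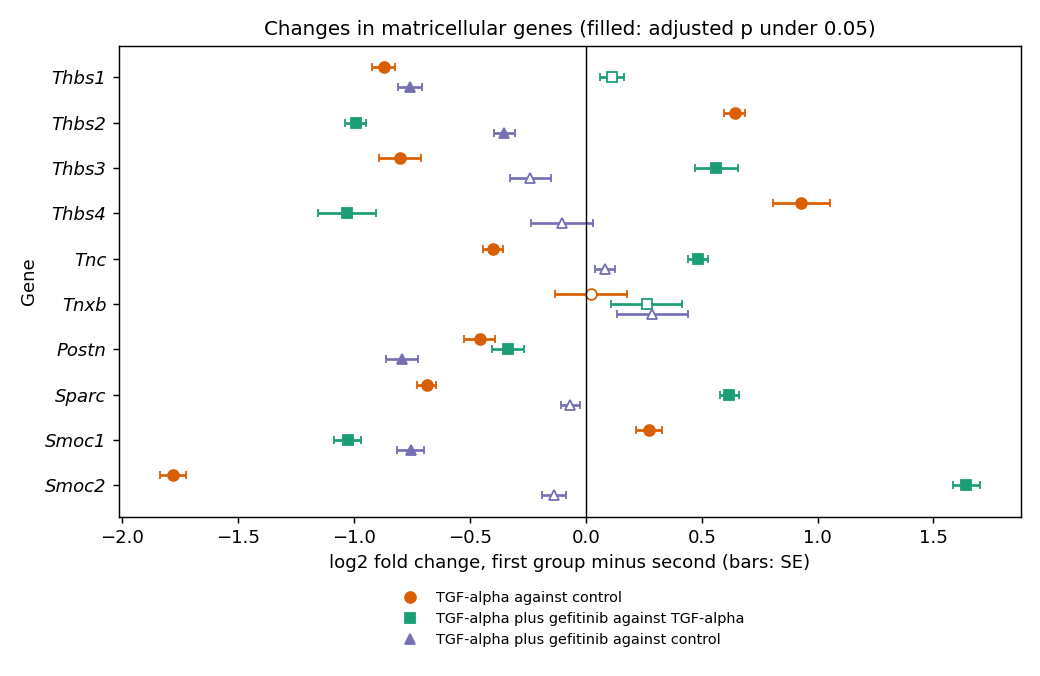
Log2 fold change of each gene (horizontal axis, first group minus second) in the 3 comparisons, with bars of 1 SE from the edgeR fit. Filled symbols passed an adjusted p of 0.05. Smoc2 has the widest swing, -1.78 with TGF-alpha and 1.64 with gefitinib added, and Thbs1, Thbs3, Postn, Sparc and Smoc2 are left of 0 against control in both treated groups, with filled symbols in both for Thbs1 and Postn.

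Among the thrombospondins, Thbs1 (chromosome 2, 118111876 to 118127133, plus strand, in GRCm38) encodes the trimeric thrombospondin-1. It measured 25499.7 and 23783 CPM in the control libraries, 14194 and 12728 CPM with TGF-alpha, and 14607 and 14508 CPM with TGF-alpha plus gefitinib. Both treated groups therefore lay far below control, with no overlap. The fall with TGF-alpha was 1.83-fold (log2 -0.87 ± 0.05 SE, edgeR adjusted p = 6.39e-09), and against control the level with both agents was 1.69-fold lower (log2 -0.76 ± 0.05, adjusted p = 4.37e-07). By itself Thbs1 supplied 2.39% ± 0.0951 of the reads counted in control cells, 1.36% ± 0.0950 under TGF-alpha and 1.48% ± 0.00375 under both agents. Between the treated groups the difference was 0.11 ± 0.05 on the log2 scale and missed the threshold (adjusted p = 0.102). The libraries of these groups did not overlap, and leaving out TGF-alpha replicate 1, the higher of its pair, gave 0.19 with an adjusted p of 0.0138. Over 14 alternatives that value lay between 0.038 and 0.19. Adding the replicate number as a block gave 0.12 (adjusted p = 0.0430), and with no filter on low counts the value was 0.11 (adjusted p = 0.000253).

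Thbs2 (chromosome 17, 14665500 to 14694235, minus strand), the other trimeric thrombospondin, moved the opposite way. Its levels were 457 and 431 CPM in control, 687 and 698 CPM with TGF-alpha, and 342 and 354 CPM with both agents. The 3 groups did not overlap, with TGF-alpha highest and the gefitinib group lowest. Thbs2 rose 1.56-fold with TGF-alpha (log2 0.64 ± 0.05, edgeR adjusted p = 6.37e-08) and fell 1.99-fold when gefitinib was added (log2 -0.99 ± 0.05, adjusted p = 5.47e-10). Its level with both agents was 1.28-fold below control (log2 -0.35 ± 0.05, adjusted p = 0.000236).

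Thbs3 and Thbs4 encode pentameric thrombospondins, of which thrombospondin-4 is best known from tendon and muscle. Thbs3 (chromosome 3, 89215180 to 89226837, plus strand) was at 60.7 and 55.5 CPM in control, 30.9 and 35.6 CPM with TGF-alpha, and 46.3 and 52.1 CPM with both agents. The TGF-alpha libraries were the lowest, and the gefitinib group lay between the others without overlap. It fell 1.74-fold with TGF-alpha (log2 -0.80 ± 0.09, adjusted p = 7.96e-06) and rose 1.48-fold with gefitinib (log2 0.56 ± 0.09, adjusted p = 0.000249), and the remaining difference from control was -0.24 ± 0.09 (adjusted p = 0.109). The antisense gene Mtx1 shares 318 exon bases with Thbs3, and whether reads were counted by strand is not given in the sources used here. Mtx1 itself was at 28.4 ± 0.943, 24.8 ± 3.27 and 26.5 ± 1.81 CPM in the same order of groups. Thbs4 (chromosome 13, 92751590 to 92794818, minus strand) was at 12.6 and 11.3 CPM in control, 23.1 and 22.5 CPM with TGF-alpha, and 10.3 and 11.99 CPM with both agents. The TGF-alpha libraries stood apart from the other 4, which overlapped. Thbs4 rose 1.90-fold (log2 0.93 ± 0.12, adjusted p = 3.58e-05) and fell 2.04-fold with gefitinib (log2 -1.03 ± 0.12, adjusted p = 1.36e-05), while the difference from control with both agents was -0.10 ± 0.13 (adjusted p = 0.708).

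Tnc (chromosome 4, 63959785 to 64047015, minus strand) encodes tenascin-C, a large hexameric protein that binds integrins and fibronectin. Its libraries measured 745 and 728 CPM in control, 553 and 564 CPM with TGF-alpha, and 789 and 772 CPM with both agents. The TGF-alpha libraries were the lowest and the gefitinib libraries the highest, each group being narrow. The fall was 1.32-fold (log2 -0.40 ± 0.04, edgeR adjusted p = 3.75e-06), the rise with gefitinib 1.40-fold (log2 0.48 ± 0.04, adjusted p = 4.87e-07), and the difference between gefitinib-treated cells and control 0.08 ± 0.04 (adjusted p = 0.248).

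Tnxb (chromosome 17, 34670535 to 34719815, plus strand) encodes tenascin-X, a protein of fibrous connective tissue that organizes collagen. It was low and noisy, at 13.03 and 14.1 CPM in control, 12.5 and 15.1 CPM with TGF-alpha, and 19.0 and 14.0 CPM with both agents. The libraries of every pair of groups overlapped, and replicate 1 of the gefitinib group was the highest of the 6. The log2 differences were 0.02 ± 0.16 for TGF-alpha against control (adjusted p = 0.934), 0.26 ± 0.15 for gefitinib added (adjusted p = 0.211) and 0.29 ± 0.15 for both agents against control (adjusted p = 0.284). Without replicate 2 of the gefitinib group the second of these was 0.46 with an adjusted p of 0.0386, so its call depended on that library.

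Postn (chromosome 3, 54361109 to 54391037, plus strand) encodes periostin, which binds collagen and tenascin-C and takes its name from the periosteum. The control libraries were both at 104 CPM, the TGF-alpha libraries at 71.2 and 80.7 CPM, and those with both agents at 59.8 and 60.5 CPM. Each group lay below the one before it, without overlap. Postn was the only member called lower in all 3 comparisons: it fell 1.37-fold with TGF-alpha (log2 -0.46 ± 0.07, edgeR adjusted p = 9.4e-05) and by a further 1.26-fold with gefitinib (log2 -0.34 ± 0.07, adjusted p = 0.00166), which left it 1.73-fold below control (log2 -0.79 ± 0.07, adjusted p = 5.18e-06).

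Sparc (chromosome 11, 55394500 to 55423183, minus strand) encodes SPARC, also called osteonectin. It measured 7915 and 7449.8 CPM in control, 4849.6 and 4701 CPM with TGF-alpha, and 7389 and 7282 CPM with both agents. Only the TGF-alpha libraries stood far from the others. Sparc fell 1.61-fold (log2 -0.69 ± 0.04, edgeR adjusted p = 1.05e-08) and rose 1.54-fold with gefitinib (log2 0.62 ± 0.04, adjusted p = 2.98e-08). With both agents its difference from control was -0.07 ± 0.04 (adjusted p = 0.372). As a share of total counts, without TMM scaling, Sparc overlapped between these groups. It was at 0.762% and 0.727% in control and 0.748% and 0.739% with both agents.

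The SMOC genes, which share the calcium-binding domain of SPARC, moved in opposite directions. Smoc2 (chromosome 17, 14279506 to 14404790, plus strand) was at 185 and 188 CPM in control, 55.6 and 53.0 CPM with TGF-alpha, and 171 and 168 CPM with both agents. Its TGF-alpha libraries were the lowest by a wide margin. The fall was 3.43-fold (log2 -1.78 ± 0.06, edgeR adjusted p = 7.82e-12), and only 2.36% of all tested genes had a larger log2 change in size in that comparison. With gefitinib Smoc2 rose 3.12-fold (log2 1.64 ± 0.06, adjusted p = 1.77e-11), and its difference from control was then -0.14 ± 0.05 (adjusted p = 0.117).

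Smoc1 (chromosome 12, 81026808 to 81186414, plus strand), whose loss impairs eye and limb development, was at 179 and 163 CPM in control, 206 and 207 CPM with TGF-alpha, and 103 and 99.6 CPM with both agents. The groups did not overlap, and the gefitinib libraries were the lowest. The rise with TGF-alpha was 1.21-fold (log2 0.27 ± 0.06, edgeR adjusted p = 0.00171). With gefitinib added the level was 2.04-fold lower than with TGF-alpha alone (log2 -1.03 ± 0.06, adjusted p = 4.16e-09) and 1.69-fold lower than in control (log2 -0.75 ± 0.06, adjusted p = 1.7e-06).

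**Figure D3:**
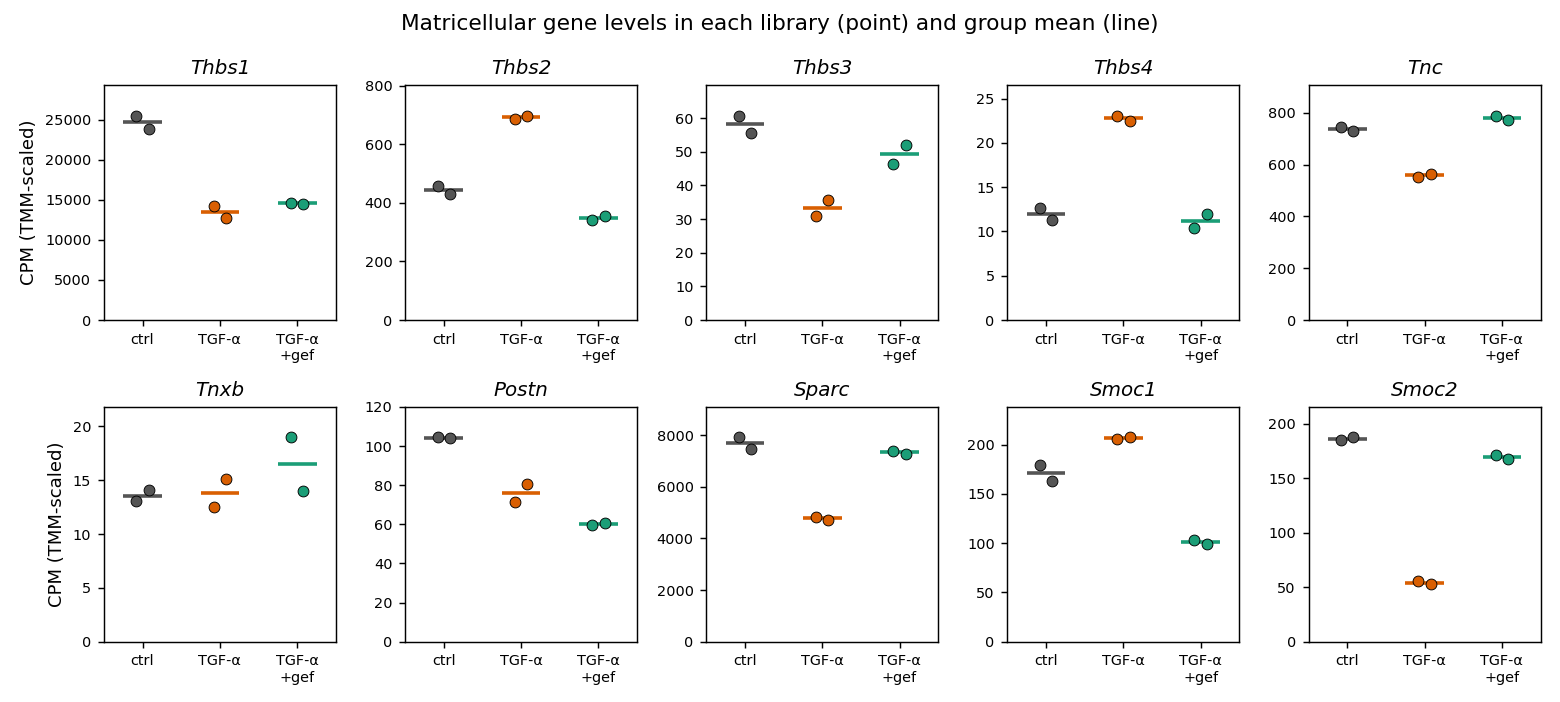
CPM of each gene (vertical axis from 0, a scale of its own per gene) in the 2 libraries of each group, with the group mean as a line; ctrl is control and TGF-α +gef is TGF-alpha plus gefitinib. Smoc2 drops from 185 and 188 to 55.6 and 53.0 CPM with TGF-alpha, and Smoc1 and Thbs2 are highest with TGF-alpha and lowest with gefitinib. The points of Thbs1, Thbs3, Postn, Sparc and Smoc2 are below control in both treated groups. With both agents Thbs3, Sparc and Smoc2 were not called against control.

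By these calls the members fell into several patterns, which describe the 3 comparisons and add no test. Thbs3, Tnc, Sparc and Smoc2 were called lower with TGF-alpha, higher when gefitinib was added, and not called against control. Thbs4 showed the mirror image. Thbs2 and Smoc1 were called higher with TGF-alpha, and with gefitinib lower than both other groups. Thbs1 and Postn were called lower than control in both treated groups, and Postn alone also fell between them.

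Ratios between genes cancel the scaling of libraries, and 5 pairs were computed, chosen after the members' values were seen. In 3 of them a gene called higher with TGF-alpha was set over one called lower, so their direction follows from the choice. The other 2 also restate the values given above for their members, so no ratio is a separate result. Per kilobase of exon, Smoc1 stood to Smoc2 at 1.92 and 1.73 in the control libraries, 7.35 and 7.78 with TGF-alpha, and 1.197 and 1.18 with both agents. In plain counts the values were 0.966 and 0.869, 3.70 and 3.91, and 0.602 and 0.593. Which of these genes was higher in control and with both agents therefore rests on exon length. The ratio of Thbs2 to Thbs1 was 0.0155 and 0.0157 in control, 0.0420 and 0.0475 with TGF-alpha, and 0.0203 and 0.0212 with both agents. Thbs4 stood to Thbs3 at 0.305 and 0.300, then 1.09 and 0.925, then 0.328 and 0.337. Its plain count ratio with TGF-alpha was 0.746 and 0.631. In these 3 pairs the TGF-alpha libraries were the highest. The remaining family pair went the other way: Tnc stood to Tnxb at 89.8 and 81.3 in control, 69.6 and 58.6 with TGF-alpha, and 65.3 and 86.7 with both agents, where the last group overlapped both others. Across families, Postn stood to Sparc at 0.00574 and 0.00608 in control, 0.00639 and 0.00747 with TGF-alpha, and 0.00352 and 0.00362 with both agents, the lowest group. An exact permutation test of 2 libraries against 2 cannot go below p = 0.333, so none is given.

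**Figure D4:**
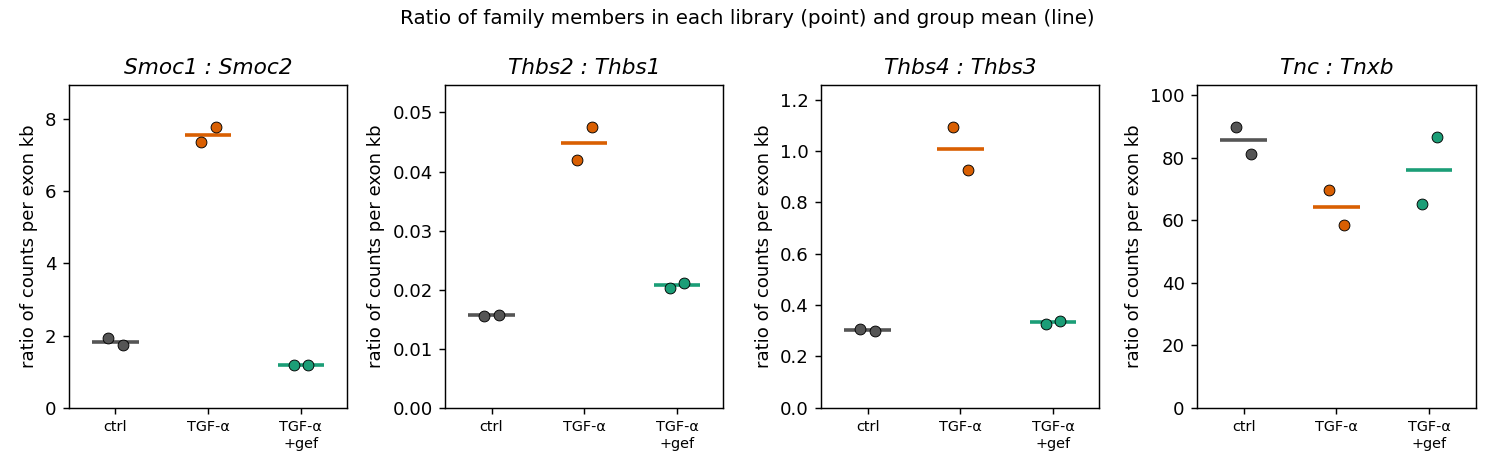
Ratio of counts per kb of exon between family members (vertical axes from 0) in each library (points), with group means as lines; ctrl is control and TGF-α +gef is TGF-alpha plus gefitinib. The TGF-alpha libraries are highest in the 3 panels that set a riser over a faller, at 7.35 and 7.78 for Smoc1 to Smoc2, and below control in the Tnc to Tnxb panel, at 69.6 and 58.6.

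Thbs2 and Smoc2, which changed in opposite directions, are neighbours on chromosome 17. Their gene bodies are 260.7 kb apart in GENCODE M21, with 2 annotated genes between them and 0 of these protein-coding. RefSeq start sites were in hand for 7 of the 10 members, but not for Thbs1, Smoc1 and Smoc2. Of these 7, 4 are shown because they set a pair that rose with TGF-alpha and fell with gefitinib (Thbs2 and Thbs4) beside a pair that did the reverse (Thbs3 and Tnc). Each is the 250 bases before the start site in RefSeq's GRCm38.p6 table, written 5′ to 3′ on the gene's strand, with capitals for matches on either strand to TGANTCA (the AP-1 motif), CCGGAAG (an ETS motif), GGGCGG (the GC box), TATAAA (the TATA box) and CCAAT. The windows are chr17:14694263-14694512 on the minus strand for Thbs2, chr13:92794819-92795068 on the minus strand for Thbs4, chr3:89214930-89215179 on the plus strand for Thbs3, and chr4:64047016-64047265 on the minus strand for Tnc.
Thbs2: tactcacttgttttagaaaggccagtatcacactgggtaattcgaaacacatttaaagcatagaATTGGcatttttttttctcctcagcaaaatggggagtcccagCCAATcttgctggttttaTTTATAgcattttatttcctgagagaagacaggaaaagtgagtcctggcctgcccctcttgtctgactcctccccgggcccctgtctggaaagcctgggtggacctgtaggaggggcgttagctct
Thbs4: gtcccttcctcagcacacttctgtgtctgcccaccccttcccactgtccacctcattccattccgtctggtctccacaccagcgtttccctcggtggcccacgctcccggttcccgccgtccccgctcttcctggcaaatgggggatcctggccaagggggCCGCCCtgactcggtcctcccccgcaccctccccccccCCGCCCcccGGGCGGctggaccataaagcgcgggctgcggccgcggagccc
Thbs3: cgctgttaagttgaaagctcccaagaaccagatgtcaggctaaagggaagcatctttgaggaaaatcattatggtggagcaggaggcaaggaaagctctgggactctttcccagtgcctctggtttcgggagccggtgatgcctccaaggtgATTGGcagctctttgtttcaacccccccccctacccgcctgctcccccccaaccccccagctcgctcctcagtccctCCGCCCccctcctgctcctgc
Tnc: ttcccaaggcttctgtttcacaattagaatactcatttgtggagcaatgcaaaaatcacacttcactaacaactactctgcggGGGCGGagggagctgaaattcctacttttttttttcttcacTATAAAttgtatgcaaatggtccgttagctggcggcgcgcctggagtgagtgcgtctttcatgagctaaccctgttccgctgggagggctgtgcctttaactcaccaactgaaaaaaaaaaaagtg
Thbs4 held 3 GC boxes, beginning 89, 51 and 42 bases before the start, and Thbs3 and this Tnc window held 1 each. GGGCGG occurred in 32.7% of the 32851 windows of the same length in the table. CCAAT, found in 33.8% of all windows, occurred at 186 and 144 bases before the start of Thbs2 and at 98 before that of Thbs3. TATAAA, found in 12.4%, lay 126 bases before the start on the gene's strand in Tnc and on the other strand in Thbs2. Postn had one 26 bases before the second of its start sites. AP-1 letters, in 6.75% of windows, were found among the 7 members searched only in Tnxb, and the ETS letters, in 6.91%, in 0 of the 9 member windows searched. Of these windows, that of Sparc has 238 of its 250 bases inside Sparc's own annotated exons, and the second of Tnc has 79. These are matches of letters in short windows and say nothing of binding.

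Receptors of thrombospondins and tenascins were mostly higher with TGF-alpha. Of 16 tested, in a list that beside receptors also held Stim1 and Calr, 10 rose and 2 fell (median log2 0.38, against 0.0039 over all genes). The 2 that fell were Stim1 and Calr. With gefitinib added 10 of the 16 fell and 3 rose (median -0.45, against 0.013). Beside these counts, and those of the lists below, stand the shares over all tested genes. Those shares were 15.9% higher and 14.0% lower with TGF-alpha, and 17.0% and 16.9% with gefitinib added. For both agents against control they were 5.27% and 4.26%. Itgav, the alpha-v integrin subunit that pairs with several beta subunits to bind RGD-containing matrix proteins, rose from 107 ± 4.96 to 165 ± 6.11 CPM and was at 97.9 ± 8.22 CPM with both agents. Itga3, a laminin-binding integrin subunit, rose 1.82-fold and the proteoglycan receptor gene Sdc4, syndecan-4, 1.80-fold. Sdc1, syndecan-1, rose by 0.58 on the log2 scale. Stim1, a calcium sensor, fell 1.54-fold with TGF-alpha, rose 1.64-fold with gefitinib added and was not called against control with both agents. Against control, 1 of the 16 was higher with both agents, the syndecan gene Sdc3 (log2 0.31 ± 0.04, edgeR adjusted p = 0.000338), and 0 were lower.

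Other matricellular genes were split, as the members were. Of 20 tested, 8 rose and 6 fell with TGF-alpha (median log2 0.027), and 11 fell and 6 rose with gefitinib added (median -0.21). The galectin genes Lgals1 and Lgals3 rose 2.15- and 2.69-fold with TGF-alpha, and Spp1, which encodes osteopontin, rose 12.8-fold. Spp1 was at 480 ± 2.62 CPM in control and 447 ± 9.35 CPM with both agents, and Lgals1 at 354 ± 0.0829 and 372 ± 14.6 CPM. Neither of these was called against control with both agents. Comp fell 1.51-fold, from 2847 ± 119 to 1887 ± 0.00715 CPM, the same direction as Thbs1 and Thbs3. With gefitinib added, Nov (the CCN family gene Ccn3) rose 3.35-fold and the elastic fibre gene Fbln5 2.59-fold, after falls of 1.81- and 1.87-fold with TGF-alpha. In the third comparison 4 were higher and 5 lower. Lgals3 was 1.46-fold above and Cyr61 (the CCN family gene Ccn1) 1.35-fold below control with both agents. Nov was 1.85-fold above control with both agents, and Tnn, which encodes tenascin-W, was 1.75-fold below it, at 43.8 ± 1.26 CPM in control and 24.9 ± 0.206 CPM with both agents.

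Binding partners and processing enzymes of these proteins also moved both ways. Of 19 tested, 6 rose and 8 fell with TGF-alpha (median log2 -0.049), and 10 rose and 8 fell with gefitinib added (median 0.24). The type I collagen genes Col1a1 and Col1a2, whose product binds SPARC and periostin, fell 2.20- and 1.86-fold with TGF-alpha, Col5a1 fell 1.89-fold, and the type VI collagen gene Col6a3 rose 2.11-fold. The collagen chaperone gene Serpinh1 fell 1.62-fold with TGF-alpha and rose 1.58-fold with gefitinib added. The fibronectin gene Fn1 rose 1.54-fold and then fell 1.68-fold, and neither gene was called against control with both agents. Against control, 2 were higher and 6 lower with both agents, the latter including Col1a1 (log2 -0.42 ± 0.05), Col1a2 (-0.46 ± 0.04) and Col3a1 (-0.50 ± 0.06). Mmp14, a membrane-bound matrix metalloproteinase, was 1.36-fold higher.

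In the TGF-beta system, on which thrombospondin-1 acts, 7 of 16 tested genes rose and 4 fell with TGF-alpha (median log2 0.29), and with gefitinib 9 fell and 3 rose (median -0.41). Ltbp1 and Ltbp2, which encode latent TGF-beta binding proteins, rose 3.64- and 3.80-fold, while the ligand gene Tgfb2 fell 2.00-fold. Against control 6 were lower and 0 higher with both agents, among them the receptor gene Tgfbr2, at 449.9 ± 9.63 CPM in control and 322 ± 0.499 CPM with both agents, along with Tgfbr3 (log2 -0.31 ± 0.07), Ltbp1 (-0.42 ± 0.06) and Ltbp2 (-0.27 ± 0.06).

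Markers of other cell types in which these genes are also active are given as summed levels, and their part in the results was not tested. Fibroblast and perichondrium markers summed to 11445 to 12337 CPM in control, 8928 to 9227 with TGF-alpha and 8744 to 8940 with both agents. Most of that sum was Col1a1 and Col3a1. Col1a1 fell from 6221 to 2824 CPM with TGF-alpha, while Col3a1, at 4895 and 5046 CPM, was not called, so the sum does not follow most of the list. All 14 of these markers were detected, and of 12 tested 5 rose and 2 fell with TGF-alpha. Tendon and ligament markers, most of whose sum was Fmod, went from 2048 to 2117 CPM in control to 780 to 834 with TGF-alpha and 2027 to 2047 with both agents. With TGF-alpha, 1 of 4 tested fell (Fmod, 2.62-fold), 1 rose (Scx, 1.75-fold) and 2 were not called. Osteoblast markers summed to 409 to 413, 126 to 131 and 257 to 267 CPM in the same order, and with TGF-alpha 4 of 7 tested fell and 0 rose. Smooth muscle and pericyte markers summed to 1194 to 1280, 890.3 to 908 and 1143 to 1154 CPM, and with TGF-alpha 3 of 7 tested fell and 1 rose. The sum for macrophages and osteoclasts was 70.2 to 71.2, 73.3 to 83.3 and 106 to 109 CPM, mostly Ctsk, with Emr1, Ptprc and Tyrobp at 0 counts in all libraries. Endothelial markers summed to at most 1.37 CPM, with Cdh5, Tie1, Emcn and Cldn5 at 0. Skeletal muscle markers summed to at most 5.62 CPM and blood cell markers to at most 7.57.

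Genes with the profiles most like the members were ranked by the root mean square (RMS) difference of centred log2 CPM over the 6 libraries, among 11257 tested genes whose mean reached 5 CPM. This is a description over few libraries. Closest to Tnc were Atf6b (RMS 0.0230), Tulp3 (0.0245) and Rcn3 (0.0257). Closest to Sparc were Sesn2 (0.0264), Gpt2 (0.0273) and Sh3pxd2a (0.0288). Smoc2 lay nearest to Slc16a14 (0.0571), Nid2 (0.0681) and Acta2 (0.0717), and Thbs1 to Ptn (0.0697), Dmd (0.0960) and Tenm3 (0.107). The gene nearest to Postn was Tnn (0.0834), a tenascin family gene, followed by Stk32b (0.0843) and Rgl1 (0.0901). Thbs2 was followed most closely by Fmnl2 (0.0501), Il1r1 (0.0575) and Tgfbr3 (0.0594). For Thbs3 they were Ust (0.0360), Pycr1 (0.0580) and Angptl1 (0.0619), for Thbs4 Gm6169 (0.0509), Alcam (0.0572) and Ncapd2 (0.0624), and for Smoc1 Adam23 (0.0848), Il6st (0.0980) and Trp63 (0.0999).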

How the data were processed

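The deposited values are raw read counts: 1 table with a row per gene and a column for each of the 6 libraries. Per the submitters' processing notes, reads were placed on GRCm38. Libraries were prepared for the Ion Proton instrument, per the labels' protocols. Which aligner, counter and annotation were used, and whether strand was, is not given in the sources used here. The test was edgeR 4.0.16, run under R 4.3.3: filterByExpr (minimum count 10), TMM scaling and a quasi-likelihood fit with group as the only term over all 6 libraries (3 residual degrees of freedom), with Benjamini-Hochberg adjustment over 15362 genes. The SE is the absolute log2 fold change divided by the square root of F. Exon lengths and positions came from GENCODE M21 on GRCm38. Exon lengths are unions over all isoforms, so levels per kb are understated where long isoforms are unused. The same fit was first tested on simulated counts with known changes. DESeq2 1.42.0, other scalings and filters, a replicate block, subsets of rows or groups and leaving out each library were alternatives. All 10 members were named; from each other list the called genes with the smallest p, up to 4 in each comparison, were named, except 1 that is not reported here. The members and lists were chosen with earlier results of these data known. Markers whose current symbol was missing from the table were matched through RefSeq synonyms.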

Additional observations from a re-analysis of the deposited data

How the results depend on the processing

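Across 14 alternatives per comparison, 415 of 420 values for single members kept the direction and the side of the threshold that the report gives, or, where not called, stayed uncalled. The other 5 passed the threshold only under the alternative, 3 of them for Thbs1 and 1 each for Tnxb and Tnc, as given in the report. No member lost a call. For TGF-alpha plus gefitinib against control, 1463 genes were called in all, against 946 with DESeq2, and leaving out a library gave 649 to 1291, with 666 without control replicate 1, 649 without control replicate 2 and 893 without replicate 2 of the gefitinib group; the cause was not tested. Members called higher there went from 0 to 1 (Tnc) with total counts only. Same-numbered libraries did not deviate together (correlations from -0.0397 to -0.00285 over 11267 genes), so the numbers were not taken as pairs. With a replicate block 4450, 5042 and 1335 genes were called in the 3 comparisons, against 4600, 5217 and 1463, and the members called were the same except for the added call of Thbs1. Leaving out 1 library puts a single sample in a group, which is then assumed to vary like the others.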
